A study of Mus musculus with 9 samples.

Results

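The insulin-like growth factor (IGF) family was examined in Reissner's membrane, the thin partition of the cochlea between the endolymph of the scala media and the perilymph of the scala vestibuli. The set was defined by gene symbol and holds the 2 ligand genes Igf1 and Igf2 and the 6 binding protein genes Igfbp2, Igfbp3, Igfbp4, Igfbp5, Igfbp6 and Igfbp7. Every probe set annotated to one of these 8 genes was taken, which gave 21 of the 45101 probe sets on the array. Of these 21 probe sets, 16 passed a filter on low signals (a signal of 200 or more on at least 3 of the 9 arrays), and each of the 8 genes kept at least 1.

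Membranes came from adult mice, were dissected by hand and were pooled to obtain enough RNA. The dexamethasone group was kept as explants for 24 h with the synthetic glucocorticoid dexamethasone at 100 nM, the incubated group was kept for 24 h without it, and the fresh group was extracted at once. Each group had 3 arrays, lettered A to C. The labels give no strain, sex or genotype, and the dose is typed in mM for dexamethasone arrays B and C but in nM for array A and in the study design. Because pooled samples were hybridised to 3 chips per biological sample, the p-values reflect array-to-array spread, possibly technical, and precision is limited by the 3 arrays of each group.

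IGF1 and IGF2 are secreted growth factors that act mainly through the IGF1 receptor, a tyrosine kinase of the cell surface. The binding proteins hold IGFs outside the cell, where they lengthen the life of the ligands, keep them from the receptor or deliver them to matrix and cell surface, and proteases that cut the binding proteins release the ligands. IGFBP7 binds IGFs weakly and is often set apart from the high-affinity members. Glucocorticoids are known to alter the expression of several of these genes in other tissues.

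Promoter windows (250 bases before to 50 after an annotated start) were available from RefSeq for all 8 genes, 12 windows in all on the mouse build GRCm38.p6. The windows of Igfbp3 and Igfbp5 are printed because these 2 genes had the largest rise and the largest fall of the set in culture and both were lower with dexamethasone. The Igfbp3 window lies at chr11:7213874-7214173 and the Igfbp5 window at chr1:72874816-72875115, both read 5′ to 3′ on the minus strand. Capitals mark matches to the TATA-type motif TATANA on either strand.
Igfbp3: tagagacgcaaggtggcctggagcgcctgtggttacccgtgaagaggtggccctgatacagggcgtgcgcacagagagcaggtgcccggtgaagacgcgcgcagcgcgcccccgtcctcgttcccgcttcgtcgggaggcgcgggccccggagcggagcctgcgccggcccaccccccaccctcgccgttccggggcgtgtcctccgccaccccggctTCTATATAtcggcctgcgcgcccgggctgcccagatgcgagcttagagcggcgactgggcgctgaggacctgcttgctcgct
Igfbp5: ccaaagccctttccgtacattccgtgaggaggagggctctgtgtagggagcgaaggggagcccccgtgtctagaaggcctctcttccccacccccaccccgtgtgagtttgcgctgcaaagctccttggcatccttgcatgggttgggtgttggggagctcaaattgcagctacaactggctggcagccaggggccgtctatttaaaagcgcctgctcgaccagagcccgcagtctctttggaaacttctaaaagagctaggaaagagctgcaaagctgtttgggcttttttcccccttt
The Igfbp3 window had a GC content of 71.7% and the Igfbp5 window 56.3%. Matches to TATANA stood in the windows of Igfbp3, Igfbp4 and Igfbp6, and in 24.7% of the 32841 windows of the same length in the table. The full palindromic glucocorticoid response element (AGAACA, then 3 bases of any kind, then TGTTCT) was in no member window and in 0.00913% of all windows. The single arm AGAACA, which is contained in the longer motif, was in 1 window of Igf2 and 1 of Igfbp2, against 19% of all windows. The AP-1 motif TGANTCA was in the window of Igf1 and in 1 window of Igfbp2, against 7.81% of all windows. All motifs were searched on both strands, and a match is a run of letters, not a measured binding site. In the RefSeq gene order Igfbp2 and Igfbp5 are neighbours on opposite strands of chromosome 1, and Igfbp1 and Igfbp3 on opposite strands of chromosome 11.

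On every array the deposited signals had a trimmed mean of 500. Between 37.4% and 37.7% of probe sets reached a signal of 200 on dexamethasone arrays, between 36.0% and 36.4% on incubated arrays and 39.4% on fresh arrays. Markers of several other cochlear tissues differed strongly between cultured and fresh arrays. Those of Schwann cells differed less: the sum of 4 genes was 14165 to 15478 on dexamethasone, 11847 to 12777 on incubated and 15306 to 15814 on fresh arrays. The summed signal of 8 neuronal genes was 246 to 325 on dexamethasone arrays and 176 to 251 on incubated arrays, against 17065 to 18111 on fresh arrays, and all 8 lay under 200 on every cultured array. The sum of 6 fibrocyte genes of the spiral ligament and limbus was 1561 to 1711 on dexamethasone arrays and 1885 to 1999 on incubated arrays, against 57768 to 59626 on fresh arrays. The sum of 8 fibroblast genes was 15457 to 16444 on dexamethasone arrays and 15290 to 17009 on incubated arrays, against 34459 to 35882 on fresh arrays. The near-equal sums of the cultured groups cover opposite changes. With dexamethasone 4 of the 8 were lower, 2 higher and 2 not called. Col3a1 fell by 2.24 and Col1a2 by 0.78, while Dcn, the brightest of the 8, rose by 0.42. For 9 genes of the membrane's epithelium, keratins among them, the sum was 86655 to 91127 on dexamethasone arrays, 78088 to 80196 on incubated arrays and 36252 to 37510 on fresh arrays. Krt8 and Krt18 had the highest means of the 9 in incubated tissue, 18103 and 17608. In culture 8 were higher and Otx2 fell by 0.88. With dexamethasone 6 were higher, 1 was not called, and Otx2 and Epcam fell by 0.64 and 0.31. Of all genes 36% were called higher and 40.7% lower in culture, and 22.3% and 28.7% with dexamethasone. Of 5 mesothelial markers, 4 (Upk3b, Upk1b, Wt1 and Lrrn4) did not pass the filter. Upk3b, Wt1 and Lrrn4 lay under 200 on every array. Upk1b peaked at 252.3, with means of 53.6, 40.2 and 206.7 in dexamethasone, incubated and fresh tissue. The sum of all 5 was 1064 to 1136 on dexamethasone arrays and 1276 to 1344 on incubated arrays, against 248.5 to 356.2 on fresh arrays. The tested one, Msln, was at least 6.01-fold higher in incubated than in fresh tissue (adjusted p = 3.32e-12) and fell by 0.34 with dexamethasone (adjusted p = 0.0113). The sum of 10 macrophage genes was 7248 to 7347 on dexamethasone arrays, 5863 to 6148 on incubated arrays and 5278 to 5403 on fresh arrays. These genes did not move together: of 7 tested, 4 were higher, 1 was lower and 2 were not called in culture. Cd68 was at least 8.23-fold higher in incubated than in fresh tissue (adjusted p = 5.69e-12), while Csf1r fell by 1.11 (adjusted p = 6.13e-09). The untested Mrc1 and Cx3cr1 had means of 23.4 and 124.7 in incubated tissue, against 200.6 and 238 in fresh tissue. Fewer cells of a type and less RNA per cell cannot be told apart in bulk tissue.

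In culture the set changed unevenly. Against fresh tissue, 2 of the 8 genes were higher after 24 h (Igfbp2 and Igfbp3) and 5 were lower (Igf1, Igf2, Igfbp4, Igfbp5 and Igfbp6), while Igfbp7 did not pass the test. These counts used 1 probe set per gene, the one with the highest mean log2 signal. A call was an adjusted p under 0.05 in a limma fit over 18913 probe sets. Other probe sets of Igf1 (1452014_a_at) and Igfbp4 (1421992_a_at) were called higher in culture. Over all 10242 tested genes 76.8% were called in this comparison, 36% higher and 40.7% lower, so the number of members called was close to the background. Scaled to the hybridization controls instead of by the deposited scaling, 4 members were higher in culture, with Igfbp4 turned to 0.18 and Igfbp7 called at 0.29. Sizes separated the members more than calls did. Igfbp3 rose and Igfbp5 and Igf2 fell by over 1 on the log2 scale, a size that 7.25% of all genes reached upward and 12.8% downward. The median change of the 8 genes was -0.40, against -0.039 for all genes.

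With dexamethasone, 2 of the 8 genes were higher than in incubated tissue (Igfbp4 and Igfbp6), 3 were lower (Igfbp3, Igfbp5 and Igfbp7), and Igf1, Igf2 and Igfbp2 did not pass the test on the probe set that stood for them. Of all genes 50.9% were called in this comparison, 22.3% higher and 28.7% lower, so the members' count was again close to the background. Scaled to the hybridization controls, which moved the median of all tested probe sets to -0.45, 0 members were higher and 7 lower, and Igfbp4 turned to -0.36. Only Igfbp3 of the 8 changed by over 1 on the log2 scale, downward, as 1.5% of all genes did, and 1.77% of all genes did so upward. The median change was 0.10 for the 8 genes and -0.030 for all genes. The 2 higher calls were fragile. Without dexamethasone array C, incubated array A or incubated array B, neither Igfbp4 nor Igfbp6 was called, and without dexamethasone array A or B or fresh array A or B the call of Igfbp4 was lost. Among calls that held under the scaling to the hybridization controls, the change with dexamethasone was -0.95 for Igfbp5 and -0.72 for Igfbp7, and the change in culture was 0.89 for Igfbp2 and -0.30 for Igf1.

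**Figure D1:**
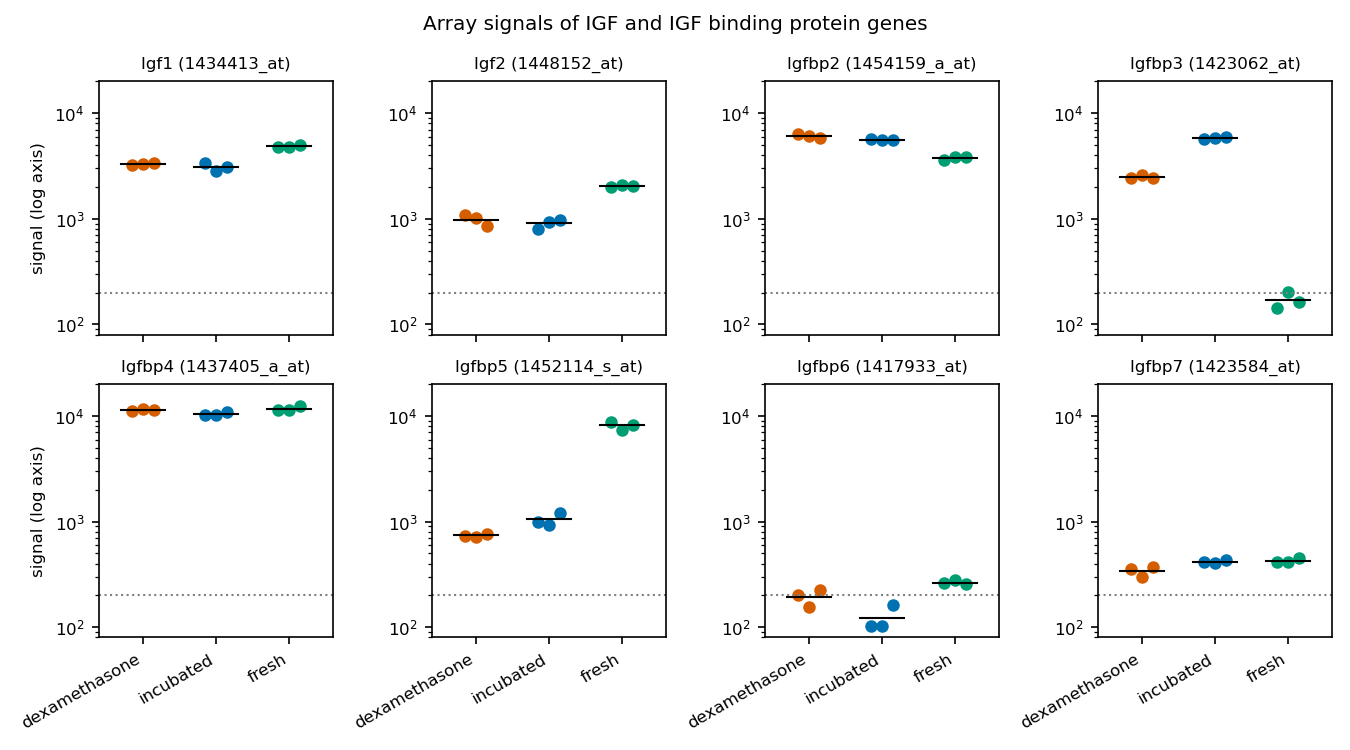
Array signals of the 8 genes (log axis), 1 panel per gene for the probe set with the highest mean; points are single arrays, bars are group means and the dotted line marks a signal of 200. Igfbp3 is highest on incubated arrays and near or under 200 on fresh arrays, and Igfbp5 is highest on fresh arrays.

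Both ligand genes were lower in culture on the probe set with the highest mean. Igf1, the main IGF of postnatal tissue, was read by 4 tested probe sets that did not move together. The probe set with the highest mean, 1434413_at, had signals of 3252.9, 3311.4 and 3348.6 on dexamethasone arrays A, B and C, 3350.5, 2865.9 and 3102.1 on incubated arrays and 4828.6, 4753.1 and 4970.2 on fresh arrays. Both cultured groups lay below the fresh group without overlap, and they overlapped each other. On this probe set Igf1 fell by 0.64 ± 0.056 on the log2 scale in incubated against fresh tissue (SE, n = 3 per group, limma, adjusted p = 3.09e-07), and the change with dexamethasone against incubated was 0.091 ± 0.056 (adjusted p = 0.188; 0.0409 without incubated array A).

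The other Igf1 probe sets gave different answers. Probe set 1437401_at had 2062.5, 2182.3 and 2206 on dexamethasone arrays, 2616.4, 2698.8 and 2472.5 on incubated arrays and 3624.1, 3668.4 and 3712.6 on fresh arrays. It fell by 0.49 ± 0.050 in incubated against fresh tissue (adjusted p = 1.27e-06) and by a further 0.27 ± 0.050 with dexamethasone against incubated (adjusted p = 0.000688), with no overlap in either comparison. Scaled to the hybridization controls, the culture change of this probe set was -0.16 and no longer called (adjusted p = 0.0563), and its change with dexamethasone was -0.75. Probe set 1452014_a_at had 1775.2, 1727.5 and 1695.3 on dexamethasone arrays, 2750, 2502.6 and 2639.2 on incubated arrays and 1907.7, 2240.1 and 2082.4 on fresh arrays. It was highest on incubated arrays, where it rose by 0.34 ± 0.063 against fresh (adjusted p = 0.000297), and it fell by 0.59 ± 0.063 with dexamethasone against incubated (adjusted p = 8.27e-06). Probe set 1419519_at had 1983.9, 2051.7 and 2069.8 on dexamethasone arrays, 1576.2, 1620.4 and 1417.6 on incubated arrays and 1960.5, 2039.5 and 1918.8 on fresh arrays. It ran the other way, lowest on incubated arrays, and rose by 0.40 ± 0.058 with dexamethasone against incubated (adjusted p = 0.000111), a change that turned to -0.084 with scaling to the hybridization controls, under which its culture change was not called either (-0.022, adjusted p = 0.81).

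The disagreement was also seen within each array. The log2 signal of 1452014_a_at minus that of 1419519_at was -0.28 to -0.16 on dexamethasone arrays, 0.62 to 0.88 on incubated arrays and -0.039 to 0.13 on fresh arrays. The groups did not overlap, and the means differed by -0.99 between dexamethasone and incubated and by 0.69 between incubated and fresh. In the exact two-sided permutation test each of the 18 such comparisons of Igf1 probe set pairs gave p = 0.1, the smallest that 3 arrays against 3 allow, and 0.1 after Benjamini-Hochberg adjustment. Which Igf1 transcripts each probe set reads is not annotated in the files. A direction in culture or with dexamethasone is therefore given per probe set and not for the gene. The counts of members take Igf1 through 1434413_at alone.

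**Figure D2:**
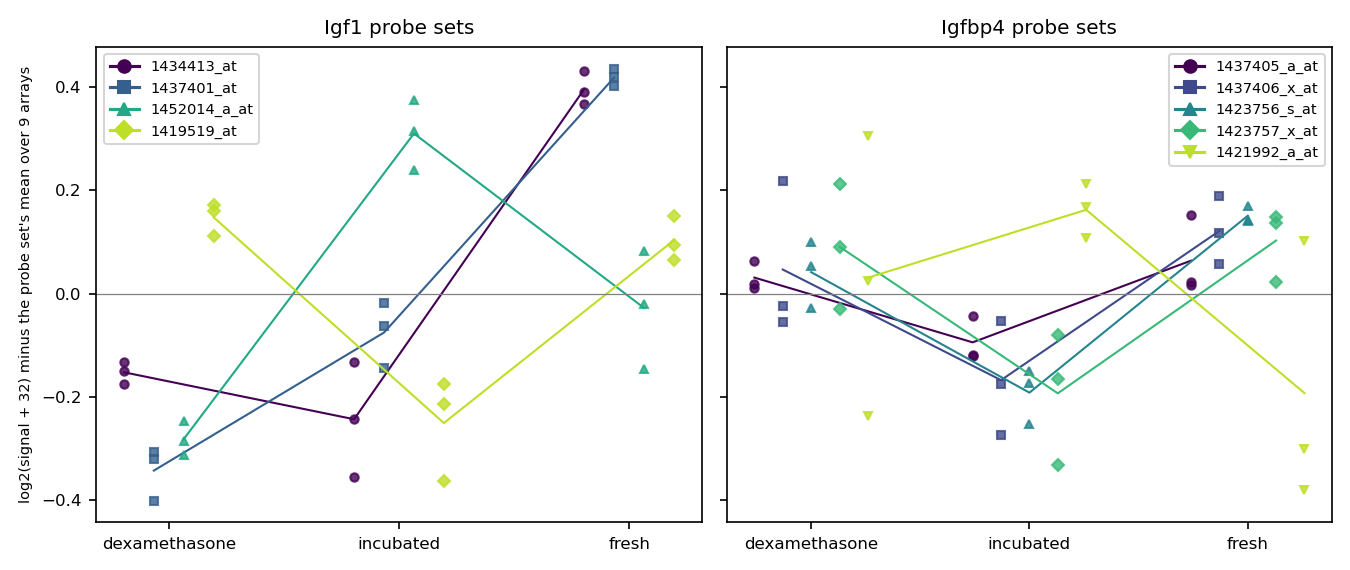
log2(signal + 32) of the tested Igf1 (left) and Igfbp4 (right) probe sets, each minus its own mean over the 9 arrays, by group; points are arrays and lines join group means. The 4 Igf1 probe sets separate on incubated arrays, where 1452014_a_at is highest and 1419519_at lowest, and 4 of the 5 Igfbp4 probe sets have their lowest mean there.

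Igf2, the IGF abundant in fetal tissue, was read by 1448152_at. Its signals were 1092.2, 1010.4 and 850.1 on dexamethasone arrays, 803, 938.1 and 981.2 on incubated arrays and 1996.4, 2087.2 and 2045.1 on fresh arrays. The cultured groups overlapped each other and both lay below the fresh group. Igf2 fell by 1.15 ± 0.091 in incubated against fresh tissue (adjusted p = 1.34e-07), a 2.25-fold lower signal, and the change with dexamethasone was 0.11 ± 0.091 (adjusted p = 0.329). A second Igf2 probe set, 1415931_at, was under 200 on all 9 arrays, with a highest signal of 83.6, and was not tested.

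Igfbp3 is the main carrier of IGFs in the circulation and is also made locally by many tissues. Its probe set 1423062_at had signals of 2414.4, 2625.9 and 2426.8 on dexamethasone arrays, 5723.6, 5831.6 and 6018.6 on incubated arrays and 142.1, 203.2 and 164.4 on fresh arrays. All 3 groups were apart. The mean was 5858 ± 149 in incubated tissue and 169.9 ± 30.9 in fresh tissue (SD, n = 3 each), a 34.5-fold ratio of means. Because 1 of the 3 fresh arrays alone reached 200, the difference is better read as a bound, at least 29.3-fold against a signal of 200 (adjusted p = 3.54e-13). With dexamethasone it was 2489 ± 119, which is 2.35-fold lower than in incubated tissue: Igfbp3 fell by 1.22 ± 0.090 (adjusted p = 4.39e-07). Dexamethasone tissue stood at least 12.4-fold above fresh tissue by the same bound (adjusted p = 2.36e-12). The rise of Igfbp3 in culture ran beside those of the epithelial, mesothelial and macrophage marker sums. In the mesothelial list Msln rose in culture, while the untested Upk1b was lower than in fresh tissue. The fall of Igfbp3 with dexamethasone ran beside those of the mesothelial and fibrocyte sums, but the genes in these sums did not move together. Of the 6 fibrocyte genes 3 were higher (Coch, Otos and Otor), 2 were lower (Car3 and Aqp1) and 1 was not called. Of all genes 22.3% were called higher and 28.7% lower. In the mesothelial list Msln fell. The untested Upk1b, Upk3b and Wt1, with means under 200 in both groups, had higher means with dexamethasone, and Lrrn4 a lower one. The sum of 5 strial marginal cell genes fell with dexamethasone too (4393 to 4580, against 4699 to 4834 on incubated arrays), while the epithelial and macrophage sums rose. The macrophage genes were again mixed with dexamethasone. Of 7 tested, 4 were higher, 2 were not called and Adgre1 fell by 0.88 (adjusted p = 1.04e-05). Means of the untested Aif1 and Cx3cr1 were lower with dexamethasone, and that of Mrc1 was higher. The part of any of these cell types in either change of Igfbp3 was not tested.

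A second Igfbp3 probe set, 1458268_s_at, had 776.5, 748.2 and 749.6 on dexamethasone arrays, 1852.7, 1826.7 and 1896.4 on incubated arrays and 109.3, 106.9 and 119.6 on fresh arrays. Since all fresh arrays lay under 200, incubated tissue was at least 9.29-fold higher and dexamethasone tissue at least 3.79-fold higher than fresh tissue (adjusted p = 3.65e-13 and 8.67e-12). With dexamethasone it was 2.45-fold lower than in incubated tissue, and Igfbp3 fell by 1.26 ± 0.070 on this probe set (adjusted p = 4.3e-08). Both probe sets thus gave falls of 1.22 and 1.26. An _s_at probe set may also hybridise to related transcripts.

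Igfbp5 is a matrix-associated binding protein found in connective and skeletal tissue. Its probe set 1452114_s_at had 736.8, 723 and 757.5 on dexamethasone arrays, 989.2, 936.2 and 1218.1 on incubated arrays and 8764.9, 7425.4 and 8276.4 on fresh arrays, with no overlap between any groups. Igfbp5 fell by 2.93 ± 0.088 in incubated against fresh tissue (adjusted p = 1.71e-11) and had a 7.78-fold lower signal. It fell by a further 0.48 ± 0.088 with dexamethasone against incubated (adjusted p = 0.000657), which is 1.42-fold, and dexamethasone tissue was 11.0-fold below fresh tissue. The fall in culture ran beside those of the fibrocyte, fibroblast, neuronal, endothelial, strial marginal and strial intermediate marker sums and, by less, the Schwann cell sum. The sum of 8 endothelial genes was 1463 to 1540 on incubated arrays, against 3426 to 3705 on fresh arrays. That of 6 strial intermediate cell genes was 276.5 to 355.2, against 2340.5 to 2511. The part of any of these cell types in the fall of Igfbp5 was not tested. The second Igfbp5 probe set, 1422313_a_at, reached 200 on 2 arrays alone and was not tested. It had 58.8, 76.1 and 49.8 on dexamethasone arrays, 60, 78.6 and 71.3 on incubated arrays and 258.4, 238.5 and 174.7 on fresh arrays.

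Igfbp2, a binding protein made in epithelia and the nervous system, had signals of 6312.7, 6147.8 and 5808.1 on dexamethasone arrays, 5734.9, 5543.4 and 5537.5 on incubated arrays and 3623, 3887.8 and 3888 on fresh arrays (1454159_a_at). Igfbp2 rose by 0.56 ± 0.049 in incubated against fresh tissue (adjusted p = 3.11e-07). The dexamethasone arrays all lay above the incubated arrays, but the change of 0.12 ± 0.049 did not pass the test (adjusted p = 0.0571), and Igfbp2 was called without dexamethasone array C (adjusted p = 0.0314). The rise in culture ran beside a rise of the epithelial marker sum, and the part of epithelial cells in it was not tested.

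Igfbp4, which is known mainly for holding IGFs away from their receptor, had the most probe sets, 5 of them tested. On 1437405_a_at the signals were 11301.4, 11734.3 and 11374.9 on dexamethasone arrays, 10315.1, 10328.6 and 10895.4 on incubated arrays and 11400.2, 11350.2 and 12483.6 on fresh arrays. Incubated arrays were lowest, and dexamethasone and fresh arrays overlapped. Igfbp4 fell by 0.16 ± 0.048 in incubated against fresh tissue (adjusted p = 0.00976) and rose by 0.13 ± 0.048 with dexamethasone against incubated (adjusted p = 0.0445). Probe sets 1423756_s_at, 1423757_x_at and 1437406_x_at gave falls of 0.34, 0.30 and 0.29 in culture and rises of 0.23, 0.28 and 0.21 with dexamethasone, all past the threshold, though the arrays of 1437406_x_at overlapped with dexamethasone and its call was lost without dexamethasone array C or incubated array A or B. The dim probe set 1421992_a_at, with group means of 295.6, 322.87 and 248.3 in dexamethasone, incubated and fresh tissue, went the other way: it rose by 0.36 ± 0.15 in culture (adjusted p = 0.0474), a call lost in 6 of the 9 fits that left out 1 array and with the replicate block (adjusted p = 0.0682), and its change with dexamethasone was -0.13 ± 0.15 (adjusted p = 0.485). The remaining probe set, 1421991_a_at, peaked at 16.4 and was not tested. Scaling to the hybridization controls turned the 4 brighter probe sets to between -0.36 and -0.20 with dexamethasone, and ended the culture fall of 1423756_s_at (-0.0065, adjusted p = 0.939). On 1437405_a_at the rise with dexamethasone was lost in 7 of the 9 fits that left out 1 array, under quantile normalization (adjusted p = 0.267) and under median centring (adjusted p = 0.0738), and the fall in culture was lost without fresh array C (adjusted p = 0.0512).

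Igfbp6, a binding protein with a strong preference for IGF2, lay near the floor. Its signals were 201.4, 155.1 and 223.9 on dexamethasone arrays, 102, 103 and 163.1 on incubated arrays and 261.3, 279.1 and 254.1 on fresh arrays. Since all incubated arrays were under 200, Igfbp6 was at least 1.32-fold lower in incubated than in fresh tissue (adjusted p = 0.000146). With dexamethasone it was called higher than in incubated tissue by 0.55 ± 0.16 (adjusted p = 0.0126), but both means lay under 200, dexamethasone array B lay below incubated array C, and the call was lost without dexamethasone array C, incubated array A or incubated array B (adjusted p = 0.0531, 0.0517 and 0.0503).

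Igfbp7, which is abundant in vessel walls, had 355.9, 300.7 and 369.9 on dexamethasone arrays, 413.5, 401.9 and 433.1 on incubated arrays and 414.9, 411.5 and 447.6 on fresh arrays. Incubated and fresh arrays overlapped, and their difference was -0.027 ± 0.092 (adjusted p = 0.803). Igfbp7 fell by 0.26 ± 0.092 with dexamethasone against incubated (adjusted p = 0.0294), a call lost without dexamethasone array B, incubated array A or incubated array C (adjusted p = 0.127, 0.0624 and 0.0858). Probe sets 1437804_at and 1423585_at peaked at 66.5 and 36.8 and were not tested.

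**Figure D3:**
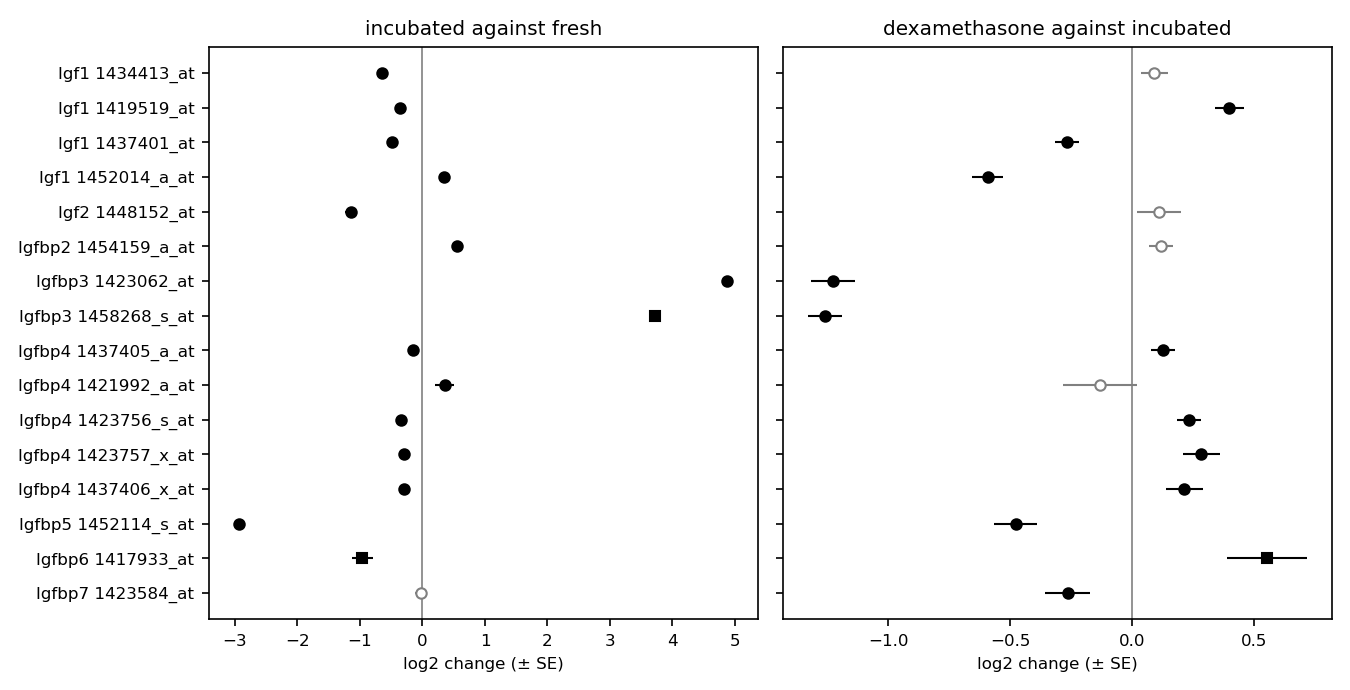
log2 change ± SE of each tested member probe set for incubated against fresh (left) and dexamethasone against incubated (right), on axes of different range; filled symbols were called, open grey symbols were not, and squares mark probe sets where a group lay wholly under 200 or no fold is given. The Igfbp3 probe sets lie far right in culture and left of 0 with dexamethasone against incubated, and Igfbp5 lies left of 0 in both panels.

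Dexamethasone and fresh tissue were compared directly as well, sharing arrays with the other 2 comparisons. In that comparison 2 of the 8 genes were higher (Igfbp2 and Igfbp3) and 5 lower (Igf1, Igf2, Igfbp5, Igfbp6 and Igfbp7), against 35.4% and 42.7% of all genes, with 78.1% called either way. Igfbp3 was higher and Igf2 and Igfbp5 were lower by over 1 on the log2 scale, as were 8.04% and 14.6% of all genes. Without dexamethasone array B only 3 members were called lower: Igfbp6 and Igfbp7 were not (adjusted p = 0.156 and 0.0602), and Igfbp6 was also lost without dexamethasone array A or any 1 fresh array. The changes of Igfbp3 were 4.88 for incubated against fresh, -1.22 for dexamethasone against incubated and 3.65 for dexamethasone against fresh. For Igfbp5 the 3 changes were -2.93, -0.48 and -3.41, and for Igfbp4 they were -0.16, 0.13 and -0.033 (adjusted p = 0.55 for the last).

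The receptors differed from each other. Igf1r, the receptor that carries the signal of both ligands, had 3292.6, 3145 and 3665.5 on dexamethasone arrays, 2052.1, 2027.9 and 2097.7 on incubated arrays and 3252.7, 3266.7 and 3424.1 on fresh arrays. Igf1r fell by 0.68 in incubated against fresh tissue (adjusted p = 2.48e-07) and rose by 0.70 with dexamethasone against incubated (adjusted p = 1.13e-06), so dexamethasone and fresh arrays overlapped. Igf2r, which clears IGF2 and carries no kinase, had 2280.9, 2064.3 and 2375.8 on dexamethasone arrays, 2235.3, 2082.3 and 2321.7 on incubated arrays and 1042.1, 1126.5 and 1001.7 on fresh arrays. Igf2r rose by 1.04 in culture (adjusted p = 2.01e-08) and its change with dexamethasone was 0.016 (adjusted p = 0.858). The insulin receptor gene Insr fell by 0.56 in culture (adjusted p = 6.26e-06), and its change with dexamethasone was -0.15 (adjusted p = 0.0762).

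In all, 9 receptor and adaptor genes were tested, of which 2 rose and 7 fell in culture, while with dexamethasone 4 rose, 1 fell and the other 4 were not called. Their medians were -0.56 and 0.047, against -0.039 and -0.030 for all genes. For this list and those that follow, the shares of all genes called are 36% higher and 40.7% lower in culture, and 22.3% higher and 28.7% lower with dexamethasone, and no list was tested as a whole. The adaptor Grb10, an inhibitor of insulin and IGF receptor signalling, rose by 1.26 in culture (adjusted p = 2.89e-08). The docking proteins of these receptors went down in culture: Irs1 fell by 1.13 (adjusted p = 1.12e-09), and Irs2 was at least 2.23-fold lower against a signal of 200 (adjusted p = 7.26e-06), which 1 of its 3 incubated arrays reached. With dexamethasone they parted, since Irs1 fell by a further 0.42 (adjusted p = 4.07e-05) while Irs2 was at least 1.53-fold higher (adjusted p = 0.00182).

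Of 10 proteases of the binding proteins and their inhibitors, 2 were tested. Htra1, a secreted serine protease that cuts IGF binding proteins, had 1874.6, 1894.5 and 1910.3 on dexamethasone arrays, 4504.7, 4237.5 and 4273.1 on incubated arrays and 1211.4, 1350.9 and 1176.1 on fresh arrays. The 3 groups were apart in the same order as those of Igfbp3. Htra1 rose by 1.78 in culture (adjusted p = 3.27e-11) and fell by 1.18 with dexamethasone (adjusted p = 1.52e-08). Adam9 rose by 0.98 in culture (adjusted p = 4.75e-10), and its change with dexamethasone was 0.070 (adjusted p = 0.188). Pappa, the protease of IGFBP4, had means of 25.2, 13.6 and 73.0 in dexamethasone, incubated and fresh tissue and was not tested.

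Igfbp1, the remaining classical binding protein and the neighbour of Igfbp3, had signals of at most 4.2 on any array and was not tested. Among 14 other genes that bind IGFs or carry an IGFBP domain, 6 were tested, of which 2 rose and 4 fell in culture, and 3 rose, 1 fell and 2 did not pass with dexamethasone. The matricellular gene Ccn1 rose by 3.56 in culture and Ccn3 was at least 1.86-fold higher. Kazald1 was at least 8.62-fold lower against a signal of 200, which 1 of its 3 incubated arrays reached, and Crim1 fell by 1.27. With dexamethasone Crim1 rose by 0.75 (adjusted p = 8.73e-07), Ccn2 rose by 0.62 (adjusted p = 8.81e-07) and Ccn3 was at least 1.86-fold lower, with 1 of 3 dexamethasone arrays at 200 or more.

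Of 6 matrix and surface partners of the binding proteins tested, 3 rose and 3 fell in culture, and 2 rose, 2 fell and 2 did not pass with dexamethasone. Tmem219, which encodes a receptor for IGFBP3, rose by 0.94 in culture and fell by 0.47 with dexamethasone, the directions of Igfbp3. The integrin gene Itgb1 rose by 1.14 in culture, Vtn, the gene of the matrix protein vitronectin, was at least 1.21-fold lower, and with dexamethasone Thbs1 rose by 0.94 (adjusted p = 7.69e-06) and Lrp1 rose by 0.56.

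Downstream, 14 PI3K, AKT and mTOR genes were tested, with 4 higher, 7 lower and 3 not called in culture, where 76.8% of all genes were called, and 6 higher, 4 lower and 4 not called with dexamethasone, where 50.9% were. Eif4ebp1, the translation repressor held in check by mTOR, rose by 3.01 in culture (adjusted p = 1.23e-11), while the PI3K subunit gene Pik3r1 fell by 1.42 and the transcription factor gene Foxo1 fell by 1.08. With dexamethasone Pik3ca fell by 0.56 (adjusted p = 2.28e-05), and Tsc1 and Eif4ebp1 rose by 0.54 and 0.52. Of 7 growth hormone axis genes, which act upstream of Igf1, 2 rose, 2 fell and 3 did not pass, both in culture and with dexamethasone against incubated. Socs3, an inhibitor of cytokine signalling, rose by 1.39 in culture, and Stat5b and the growth hormone receptor gene Ghr fell by 0.80 and 0.69. With dexamethasone Cish rose by 0.70 (adjusted p = 4e-06) and Socs3 rose by 0.56, while Jak2 fell by 0.22.

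Igf2 is imprinted, and of 6 other imprinted growth genes tested, 2 rose and 4 fell in culture, while 3 rose and 3 fell with dexamethasone. Peg3, Cdkn1c and Meg3 fell by 2.17, 1.90 and 1.88 in culture. With dexamethasone Mest fell by 0.83 (adjusted p = 5.08e-06), and Meg3 and Plagl1 rose by 0.56 and 0.43. The single tested IGF2 mRNA-binding gene, Igf2bp3, did not pass the test in either comparison. Over all these lists, 51 genes were tested, of which 17 rose and 27 fell in culture (median -0.22, against -0.039 for all genes), and 20 rose and 14 fell with dexamethasone (median 0.086, against -0.030 for all genes). The shares called among all genes, 76.8% in culture and 50.9% with dexamethasone, stand beside these counts. Scaling to the hybridization controls ended the dexamethasone calls of Irs2, Ccn2, Lrp1, Tsc1, Eif4ebp1, Socs3 and Meg3, turned Plagl1 to -0.057 and called Insr (-0.63), Adam9 (-0.42) and Igf2r (-0.47) lower. Under it the rises with dexamethasone of Igf1r (0.21), Cish (0.22), Crim1 (0.26) and Thbs1 (0.49) kept their calls at smaller sizes, and the falls of Irs1 (-0.89), Jak2 (-0.70), Mest (-1.29), Pik3ca (-1.03) and Tmem219 (-0.94) were larger. In culture the falls of Igf1r (-0.34), Insr (-0.23), Ghr (-0.35) and Stat5b (-0.48) were smaller and still called.

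**Figure D4:**
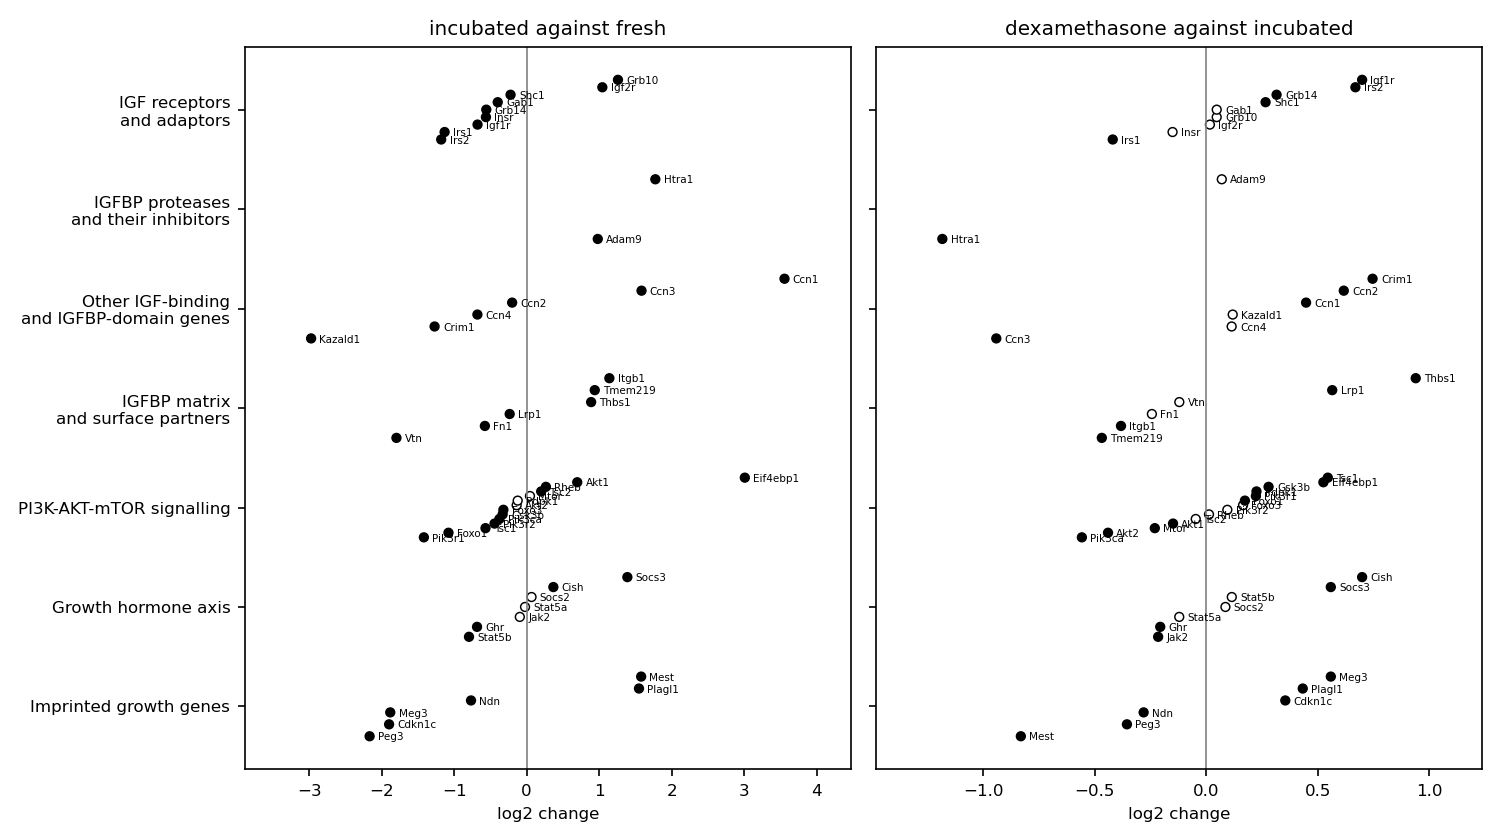
log2 changes of IGF pathway genes by list, for incubated against fresh (left) and dexamethasone against incubated (right); filled points were called and open points were not, and the 2 axes have different ranges. Igf1r and Irs2 lie left of 0 in culture and right of 0 with dexamethasone, and Htra1 lies right of 0 in culture and left of 0 with dexamethasone.

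For each member, the 2 genes with the most similar profile were found among 10234 other genes, by the root mean square difference of log2 signals over the 9 arrays after each gene was centred on its own mean. For Igfbp3 these were Ccl2, a monocyte chemokine (0.168), and Timp1, an inhibitor of matrix metalloproteinases (0.233). Their means were 926.6, 2280.1 and 44.5 for Ccl2 and 1677, 3132 and 90.6 for Timp1 in dexamethasone, incubated and fresh tissue. For Igfbp5 they were Bend6 (0.114), which was far under 200 in both cultured groups, and the sodium pump subunit gene Atp1b2 (0.135), with means of 985.9, 1437 and 11987 in dexamethasone, incubated and fresh tissue. Atp1b2 is one of the 5 strial marginal cell markers, whose summed signal was 4393 to 4580, 4699 to 4834 and 22935 to 24042 in the same groups. For Igfbp6 they were Irs2 (0.134) and Tppp3 (0.139). The profiles nearest to Igf1, Igf2, Igfbp2, Igfbp4 and Igfbp7 lay at 0.040 to 0.088, those of Igf2 being Tprkb (0.075) and Pitpnc1 (0.088), with changes in culture of -1.15 and -1.07. The 9 arrays share their scaling and fall into 3 groups, so likeness describes these arrays alone.

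**Figure D5:**
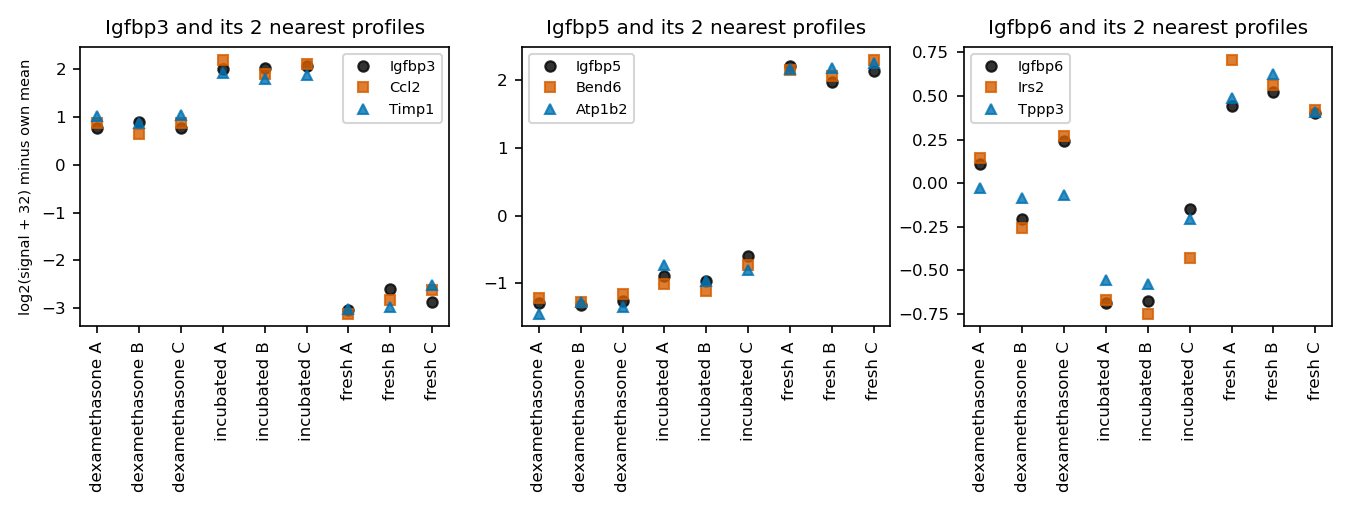
log2(signal + 32) minus the gene's own mean on each of the 9 arrays, for Igfbp3, Igfbp5 and Igfbp6 and the 2 genes nearest to each. Ccl2 and Timp1 follow Igfbp3, high on incubated, intermediate on dexamethasone and low on fresh arrays.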

How the data were processed

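RNA from pooled membranes was amplified with 2 rounds of in vitro transcription and hybridised to Affymetrix oligonucleotide arrays, per the labels' protocols. The deposited values are intensity signals on a linear scale, 1 for each probe set. Per the labels' description, the authors scaled every array to a target of 500 over its probe sets. The summarising software is not given in the sources used here. Control probe sets (64) were left out of the test, and a signal of 200 or more on at least 3 of 9 arrays was required, which left 18913 of 45101 probe sets. A gene above 200 in 1 group alone passed through that group.

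From these signals, log2(signal + 32) was fitted in limma 3.58.1 (R 4.3.3) with 1 mean per group over all 9 arrays, eBayes with an intensity trend and Benjamini-Hochberg adjustment over all tested probe sets. A fold change on this scale understates the change of dim probe sets. Where all 3 arrays of a group lay under 200 and the other mean above it, the fold is a bound against 200, and where both means lay under 200 none is given. For Igfbp3, Irs2, Kazald1 and Ccn3, where 1 array of a group with a mean under 200 reached it, a bound against 200 is given too. Gene symbols came from the platform annotation, in which 34945 probe sets had 1 symbol, 932 several and 9160 none. Of 159 listed pathway and marker genes 148 were on the array by that annotation, and the rest were not analysed here. Named pathway genes were up to 3 called genes with the largest change per list and comparison, plus Igf1r, Igf2r, Insr and Igfbp1. Pappa, Igf2bp3 and the marker genes given by name do not come from this rule and were picked with their values in view. The members, lists and tests were chosen with earlier results of these data known. The fit was tested on simulated data for incubated against fresh over 18913 probe sets with 200 changed: it recovered 48%, 94%, 100% and 100% at log2 changes of 0.5, 1, 2 and 4, with 10 false calls. The simulated noise was independent between probe sets, and far fewer changed than in the data, where 76.8% of genes were called. These shares therefore need not hold for the data. Pearson's r of log2 signals was 0.984 to 0.989 between arrays of a group and 0.928 to 0.976 between groups, and no 2 arrays were identical. Alternatives were 3 other scalings, a pseudocount of 1 or of 100, floors of 100 and 400 or none, no trend in eBayes, a fit to the 2 compared groups, the array letter as a block, the smallest p per gene and each array left out. Figures were drawn with matplotlib 3.10.9.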

Additional observations from a re-analysis of the deposited data

How the results depend on the processing

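Igfbp3, Igfbp5 and Igf2 kept direction and call in incubated against fresh tissue under every alternative run, with log2 changes of 4.47 to 5.20 for Igfbp3 (1423062_at), -3.04 to -2.60 for Igfbp5 and -1.20 to -0.82 for Igf2. With dexamethasone against incubated, Igfbp3 ranged from -1.71 to -1.18 and Igfbp5 from -0.95 to -0.37, called in each. Scaling to the 9 hybridization controls moved the median of all tested probe sets to 0.27 in incubated against fresh, -0.45 in dexamethasone against incubated and -0.15 in dexamethasone against fresh, where the deposited scaling gave -0.050, 0.0071 and -0.0054. Under it 4 members were higher in culture, and 0 were higher and 7 lower with dexamethasone. It reversed the change with dexamethasone against incubated for Igf1 1434413_at (-0.40) and 1419519_at (-0.084), Igf2 (-0.36), Igfbp2 (-0.37) and Igfbp4 (-0.36 for 1437405_a_at, -0.28 for 1437406_x_at, -0.25 for 1423756_s_at and -0.20 for 1423757_x_at), that of Igf1 1419519_at against fresh (-0.11), and the change in culture of Igfbp4 (0.18, 0.048 for 1437406_x_at and 0.036 for 1423757_x_at) and Igfbp7 (0.29). Among the named pathway genes it reversed the change with dexamethasone of Adam9 (-0.42), Igf2r (-0.47) and Plagl1 (-0.057). Relative to the shifted median, Igfbp4 stood at -0.092 in culture and 0.090 with dexamethasone, Igf1 at 0.059, Igf2 at 0.090 and Igfbp2 at 0.084 with dexamethasone. The count of 2 members higher with dexamethasone was 1 under median centring, no filter, a floor of 400 and eBayes without the trend, and 0 to 2 with 1 array left out. The count of 5 lower in dexamethasone against fresh was 3 to 5 with 1 array left out. Other reversals were small: Igfbp7 in culture under quantile normalization (0.11), median centring (0.025) and without fresh array C (0.0090, range -0.054 to 0.0090), Igfbp4 in dexamethasone against fresh under median centring (0.0060 for 1437405_a_at and 0.027 for 1423757_x_at) and with 1 array left out (-0.057 to 0.012 and -0.073 to 0.049), and Igfbp4 1421992_a_at with dexamethasone against incubated (-0.27 to 0.0027 with 1 array left out), and Igf2r in the same comparison (-0.027 to 0.073 with 1 array left out, below 0 without dexamethasone array C or incubated array B). The cause was not tested in these cases. Of 1849 single probe set values under alternatives, 1746 kept direction and call. The array letters did not pair the groups (r of same-letter deviations -0.062 to 0.16). With the replicate block, 2 members were higher and 5 lower in culture, 2 higher and 3 lower with dexamethasone, and 2 higher and 5 lower in dexamethasone against fresh, and it ended the call of Igfbp4 1421992_a_at in culture (adjusted p = 0.0682) and added one of 1423756_s_at in dexamethasone against fresh (0.0481). Probe sets near 200, Igfbp6 among them, have little signal over the floor, which limits what their changes show.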
